A study of Mus musculus with 8 samples.

Results

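The genes described here are 10 mouse genes whose products bind double-stranded or Z-form RNA or pass on the signal of those that do: Zbp1, Ddx58, Ifih1, Dhx58, Tlr3, Eif2ak2, Oasl2, Mavs, Adar and Ripk3. They were taken by symbol from the 49641 entries of the deposited expression table, and each symbol matched 1 entry. Of the 10, 7 had a mean FPKM (fragments scaled by transcript length and by the total of the library) of at least 1 over the libraries and were tested. Ifih1, Dhx58 and Tlr3 were below that level. Zbp1 and Oasl2 passed it only through the groups in which they were high, so a difference was to be found in them once they had passed.

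Gene expression was measured by RNA sequencing in mouse embryonic stem cells labelled as the V6.5 line of 129/C57BL/6 strain, with 2 libraries in each of 4 groups. The siMbnl1/2 group is Dgcr8 knockout (KO) cells transfected with siRNAs against the muscleblind-like splicing regulators Mbnl1 and Mbnl2. The miR-294 group is Dgcr8 KO cells transfected with a mimic of miR-294, a microRNA of the miR-290 family that is abundant in these cells. The Dgcr8 KO group is knockout cells labelled control, and the WT group is wild-type cells labelled control. Dgcr8 works with Drosha to cut microRNA precursors, and cells with no functional Dgcr8 are known to lose canonical microRNAs. The siMbnl1/2, miR-294 and Dgcr8 KO groups share that knockout, and no microRNA was measured here. Both duplexes were given at 50 nM, 16 hours after plating. The columns of the control groups are named mock, so the sequence of miR-294 and the transfection of a duplex RNA cannot be told apart in miR-294 minus Dgcr8 KO. Column names are V65 for WT and ES1 for Dgcr8 KO, so Dgcr8 KO minus WT may also hold a difference between lines. Culture was in serum and LIF, either on gelatin or on feeders made of irradiated fibroblasts, with the choice for each library not given in the sources used here. Nothing states that the 2 libraries of a group came from separate cultures, so the p-values may cover technical spread alone.

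Double-stranded RNA arises in viral infection and is also made from the cell's own repeats. RIG-I (Ddx58) and MDA5 (Ifih1) bind it in the cytosol and signal through the mitochondrial adaptor Mavs to the interferon genes, Tlr3 senses it in endosomes, the kinase PKR (Eif2ak2) shuts down translation on binding it, and Adar edits adenosines in it and so blunts sensing. Zbp1 binds the left-handed Z-form of RNA and DNA through its Z-alpha domains and passes the signal to the kinase Ripk3, which starts necroptosis. Mouse embryonic stem cells are known for a weak interferon response, and most of these genes are themselves induced by interferon in differentiated cells.

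miR-294-3p recognises targets through its seed (bases 2 to 8 from the 5′ end, in capitals), and its sequence is shown with the matches to it that were found in the 3′ untranslated regions of 3 of the 10 genes. The microRNA sequence is from RefSeq (mm10, chromosome 7, 3220691 to 3220712, plus strand) and the sites are from GENCODE M21 transcripts.
miR-294-3p: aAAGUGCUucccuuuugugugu
Oasl2: gcatgcctttatctcAGCACTTAg
Eif2ak2: ctcgctgcttctcaaAGCACTTtg
Tlr3: tcataaattgcaagtAGCACTTgg
Capitals in the sites mark the bases that match the seed, with the A opposite base 1 of the microRNA where it is present, as in Oasl2. The Oasl2 match stood at base 156 of a region of 867 bases, that of Eif2ak2 at base 2370 of 2575 and that of Tlr3 at base 424 of 1496, in 1 of 4 Tlr3 transcripts. Zbp1, Ddx58, Ifih1, Dhx58, Mavs, Adar and Ripk3 had no such match in this window. Of 11506 tested genes with an annotated region, 22.3% held a match, so the share among these genes lay near that of all genes.

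Promoters that hold letters like those of an interferon-stimulated response element are shown for the same set. The motif searched was GAAA, any 2 bases and GAAA again, on either strand (TTTC, any 2 bases and TTTC where it lies on the opposite strand), from 250 bases before to 50 bases after each RefSeq start. Promoters were found for 8 of the 10 genes, all but Zbp1 and Dhx58, and 3 of these held the motif, against 3.99% of 27025 genes with a promoter of that length and 3.44% of 32851 promoters. The promoters of Oasl2, Tlr3, Mavs and Ripk3 and all 3 listed for Adar did not hold it. Only this exact pattern was searched, so looser forms of the element were not looked for. The motif was also held by 16 of the 35 interferon-induced effector genes that had a RefSeq promoter. In the other pathway lists described below it was held by 5 of 23 genes of interferon ligands, receptors and transducers. The oligoadenylate synthetase pathway had it in 4 of 9, DNA sensing in 3 of 11 and necroptosis in 2 of 11. Signalling below the sensors had it in 2 of 24 and other double-stranded RNA binding proteins in 1 of 22.
Eif2ak2, mm10, chr17:78882523-78882822, minus strand: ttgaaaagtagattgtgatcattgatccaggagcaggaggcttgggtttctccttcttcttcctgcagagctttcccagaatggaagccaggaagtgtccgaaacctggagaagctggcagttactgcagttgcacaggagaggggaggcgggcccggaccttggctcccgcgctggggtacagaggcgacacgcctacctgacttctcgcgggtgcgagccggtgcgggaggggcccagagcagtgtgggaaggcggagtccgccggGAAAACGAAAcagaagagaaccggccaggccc
Ifih1, mm10, chr2:62646206-62646505, minus strand: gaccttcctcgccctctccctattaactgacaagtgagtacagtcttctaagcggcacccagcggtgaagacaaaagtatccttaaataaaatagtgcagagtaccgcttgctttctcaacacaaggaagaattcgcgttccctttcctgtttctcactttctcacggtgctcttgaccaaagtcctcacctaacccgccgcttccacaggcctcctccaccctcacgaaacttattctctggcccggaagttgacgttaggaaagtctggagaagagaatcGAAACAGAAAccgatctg
Ddx58, mm10, chr4:40239776-40240075, minus strand: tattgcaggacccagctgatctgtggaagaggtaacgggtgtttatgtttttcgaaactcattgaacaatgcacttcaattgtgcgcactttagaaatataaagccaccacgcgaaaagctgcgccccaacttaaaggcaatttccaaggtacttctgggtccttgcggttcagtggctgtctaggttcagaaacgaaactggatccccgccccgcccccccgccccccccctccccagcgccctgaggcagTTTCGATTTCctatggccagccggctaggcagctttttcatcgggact
The capitals mark the motif, which began 18 bases past the start in Eif2ak2, 32 bases past it in Ifih1 and 2 bases past it in Ddx58. A match is a description of the sequence and not evidence of binding.

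The libraries behind these values held 12386 to 12860 genes at 1 FPKM or more each, and their read depth is unknown. The median within-group SD of log2(FPKM + 1) was 0.121 with siMbnl1/2, 0.049 with miR-294, 0.102 in Dgcr8 KO and 0.046 in WT. Dgcr8 itself had a mean of 8.19 FPKM in Dgcr8 KO and 22.4 in WT, a difference of -1.35 ± 0.10 (adjusted p = 3.47e-05). Mbnl2 had 12.8 with siMbnl1/2 and 26.6 in Dgcr8 KO (-1.01 ± 0.12, adjusted p = 0.0191), and Mbnl1 had 6.8 with siMbnl1/2 and 8.71 in Dgcr8 KO (-0.31 ± 0.10, adjusted p = 0.158). The stem cell factors Pou5f1 and Nanog were at 207 FPKM or more in every library. Nanog had 373 and 387 FPKM in Dgcr8 KO and 209 and 207 in WT, and Pou5f1 799 and 685 against 1030 and 1040. Of the 8 stem cell markers, 3 were called higher and 2 lower in Dgcr8 KO minus WT, where 59.8% of all tested genes were called. In miR-294 minus Dgcr8 KO 3 were higher and 3 lower, where 52.2% were called, and their part in the results was not tested. Of the fibroblast markers that would mark feeders, the summed level lay between 5.85 and 7.58 FPKM in all libraries, with 2 of 10 at 1 or more, Thy1 and Twist1. Thy1 had 1.59 and 1.75 FPKM with siMbnl1/2, 3.64 and 3.76 with miR-294, 1.65 and 1.54 in Dgcr8 KO, and 2.71 and 1.94 in WT. Twist1 had 3.65 and 4.63 with siMbnl1/2, 2.63 and 3.14 with miR-294, 4.79 and 4.33 in Dgcr8 KO, and 2.45 and 2.59 in WT. Thy1 was called higher and Twist1 lower in miR-294 minus Dgcr8 KO, and their part in the results was not tested. The defining members of that list, Col1a1 and Dcn, reached at most 0.5 and 0.0626, and the blood cell marker Ptprc at most 0.048. The list of macrophage and blood cell markers had 1 of 6 at 1 or more, Cd68, a lysosomal protein. Cd68 had 23.3 and 22.8 FPKM with siMbnl1/2, 15.2 and 14.5 with miR-294, 18.1 and 14.8 in Dgcr8 KO, and 8.85 and 8.89 in WT. It was higher in Dgcr8 KO than in WT by 0.82 ± 0.10 (adjusted p = 0.000292), as were Zbp1, Oasl2 and Eif2ak2, and its part in those differences was not tested. The primitive endoderm markers, in contrast, summed to 3.37 to 4.28 FPKM in the siMbnl1/2, miR-294 and Dgcr8 KO libraries and to 58.9 and 59.4 in WT, and their part in the differences from WT was not tested. In bulk RNA, a lower level in each cell and fewer cells with the transcript cannot be told apart.

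In Dgcr8 KO cells Zbp1, Oasl2, Eif2ak2 and Mavs rose and Ripk3 fell relative to WT. Zbp1 had the highest mean of the 10 genes in Dgcr8 KO and the ninth in WT, while Ddx58 and Adar, the best expressed members in WT, did not pass the test. Changes are given as differences of mean log2(FPKM + 1) ± SE, with Benjamini-Hochberg adjusted p-values from limma over all 12786 genes tested. Of the 7 members tested, 5 were called, 4 higher and 1 lower, where 59.8% of all tested genes were called, 29.6% higher and 30.1% lower. The libraries of 6 of the 7 did not overlap between the groups, as for 81.8% of all tested genes. So many genes were called in this comparison that the count of members called says little by itself.

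Zbp1, the Z-form sensor (ENSMUSG00000027514.14; mm10 chromosome 2, 173206612 to 173218923, minus strand), had 23.9 and 22.2 FPKM with siMbnl1/2, 2.17 and 1.93 with miR-294, 17.7 and 15.5 in Dgcr8 KO, and 0.141 and 0.0921 in WT. No library of any group overlapped with those of another. The rise in Dgcr8 KO over WT was 3.98 ± 0.10 (adjusted p = 1.5e-06), and 6.28 with a pseudocount of 0.1, since adding 1 shrinks differences of low values.

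Oasl2, a member of the oligoadenylate synthetase family (ENSMUSG00000029561.17; chromosome 5, 114896936 to 114912234, plus strand), had 12 and 15.8 FPKM with siMbnl1/2, 1.42 and 1.01 with miR-294, 11.4 and 10 in Dgcr8 KO, and 0.278 and 0.0449 in WT. As for Zbp1, the siMbnl1/2 and Dgcr8 KO libraries were the high ones and the WT libraries the lowest. It rose in Dgcr8 KO by 3.34 ± 0.17 (adjusted p = 9.18e-06), and by 5.52 with a pseudocount of 0.1. The family has close paralogs, and how the authors' counting split reads between them is not given in the sources used here.

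Eif2ak2, which encodes PKR (ENSMUSG00000024079.4; chromosome 17, 78852564 to 78882573, minus strand), had 12.2 and 14.5 FPKM with siMbnl1/2, 6.38 and 6.47 with miR-294, 13.8 and 15.4 in Dgcr8 KO, and 6.71 and 7.43 in WT. The groups formed a high pair and a low pair with no overlap between the pairs. Its mean in Dgcr8 KO was 2.06 times that in WT (0.95 ± 0.11, adjusted p = 0.000215). This is the gene with both a seed match and the promoter motif shown above.

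Mavs, the adaptor below RIG-I and MDA5 (ENSMUSG00000037523.13; chromosome 2, 131234063 to 131248025, plus strand), had 10.2 and 14.7 FPKM with siMbnl1/2, 12.5 and 13.2 with miR-294, 16.7 and 13.0 in Dgcr8 KO, and 8.29 and 8.41 in WT. All libraries of Dgcr8 KO origin lay above both WT libraries, and their groups overlapped with each other. It rose in Dgcr8 KO by 0.76 ± 0.17 (adjusted p = 0.00609).

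Ripk3, the kinase that Zbp1 engages through a shared interaction motif (ENSMUSG00000022221.13; chromosome 14, 55784996 to 55788857, minus strand), had 3.66 and 4.14 FPKM with siMbnl1/2, 5.92 and 5.46 with miR-294, 3.12 and 2.19 in Dgcr8 KO, and 5.42 and 4.54 in WT. The Dgcr8 KO libraries were the lowest and the miR-294 libraries the highest. It fell in Dgcr8 KO by 0.72 on the log2 scale (SE 0.15, adjusted p = 0.00404), so the sensor and its kinase moved in opposite directions.

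Ddx58, which encodes RIG-I (ENSMUSG00000040296.15; chromosome 4, 40203773 to 40239828, minus strand), had 15.8 and 14.3 FPKM with siMbnl1/2, 30.0 and 31.4 with miR-294, 15.0 and 16.5 in Dgcr8 KO, and 14.3 and 14.5 in WT. The miR-294 libraries lay far above those of the other groups, and the Dgcr8 KO libraries just above those of WT. In Dgcr8 KO minus WT its difference was 0.12 ± 0.08 (adjusted p = 0.244).

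Adar, the editing enzyme (ENSMUSG00000027951.16; chromosome 3, 89715022 to 89753446, plus strand), had 13.0 and 13.1 FPKM with siMbnl1/2, 13.8 and 13.8 with miR-294, 13.2 and 11.7 in Dgcr8 KO, and 13.0 and 13.0 in WT. Its range of group means, 0.14 on the log2 scale, was the smallest of the 7 members tested. The difference in Dgcr8 KO minus WT was -0.06 ± 0.08 (adjusted p = 0.551). Adar overlaps Chrnb2 on the opposite strand, and Dhx58, Tlr3 and Eif2ak2 overlap noncoding genes there. Whether strand was used in counting is not given in the sources used here, so reads of such partners may be mixed.

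The remaining RNA sensors stayed low. Ifih1, which encodes MDA5, had 0.357 and 0.295 FPKM with siMbnl1/2, 0.225 and 0.0382 with miR-294, 0.378 and 0.41 in Dgcr8 KO, and 0.027 and 0.0115 in WT. Dhx58, the RIG-I-like receptor LGP2 that lacks signalling domains, had 0.757 and 1.13 with siMbnl1/2, 0.627 and 0.466 with miR-294, 1.16 and 0.57 in Dgcr8 KO, and 0.634 and 0.648 in WT. Tlr3 had 0.416 and 0.256 with siMbnl1/2, 0.0815 and 0.0843 with miR-294, 0.523 and 0.129 in Dgcr8 KO, and 0.0553 and 0.301 in WT. Without a filter on low values, over 28009 genes, Ifih1 was higher in Dgcr8 KO than in WT by 0.45 ± 0.09 (adjusted p = 0.0103). Dhx58 and Tlr3 had overlapping libraries in that comparison, with adjusted p = 0.557 and 0.541.

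**Figure D1:**
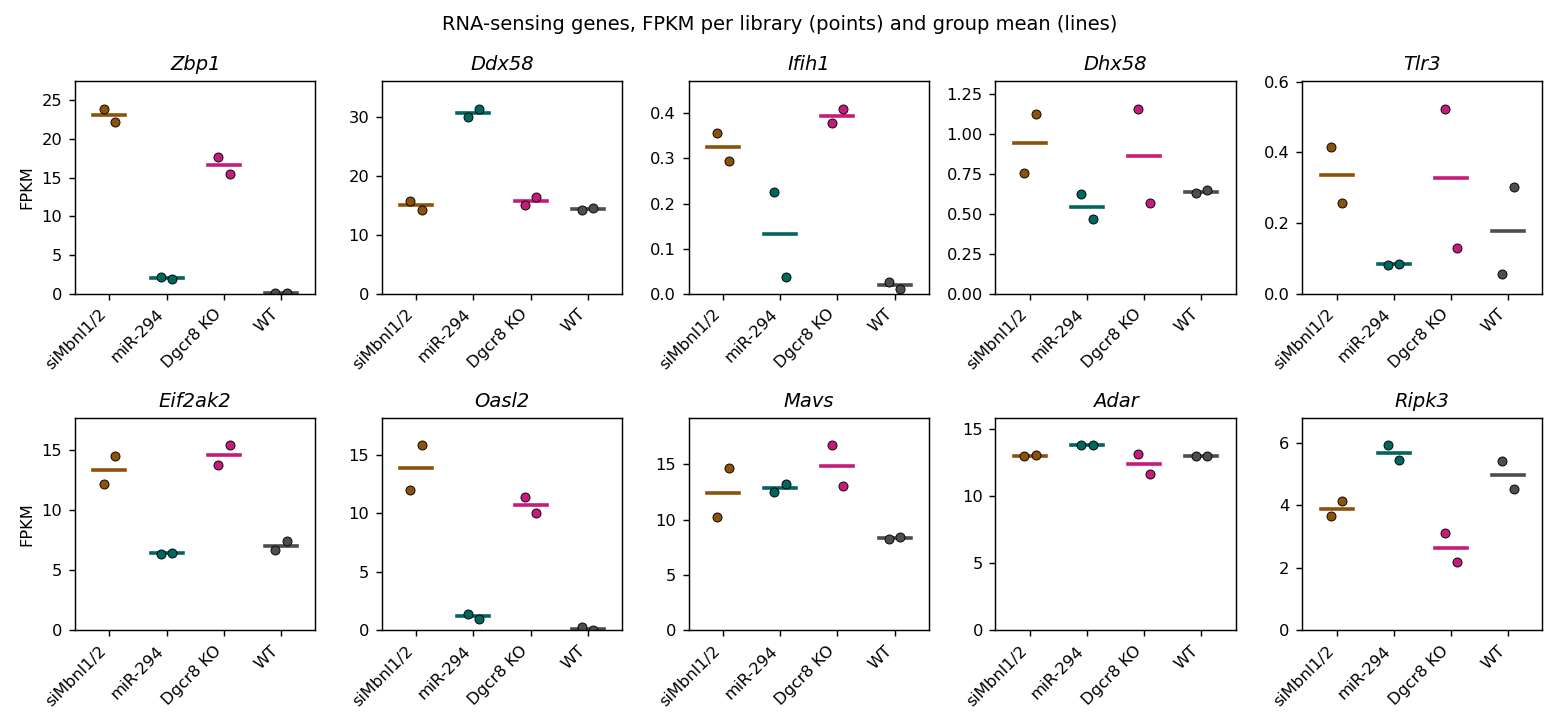
FPKM of the 10 genes in each library (points) with the mean of the group (line), each panel with its own axis from 0. Zbp1, Oasl2 and Eif2ak2 are high with siMbnl1/2 and in Dgcr8 KO, Ddx58 is high with miR-294 alone at 30.0 and 31.4, and Adar lies between 11.7 and 13.8 throughout.

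The order of the levels, which FPKM allows to be compared between genes per length, differed between the groups. In Dgcr8 KO, Zbp1, Ddx58, Mavs and Eif2ak2 came first with means of 16.6, 15.7, 14.9 and 14.6 FPKM, and each overlapped with the next in its 2 libraries. In WT the order was Ddx58 (14.4), Adar (13.0), Mavs (8.35), Eif2ak2 (7.07) and Ripk3 (4.98), with no overlap between neighbours, and Zbp1 stood ninth at 0.116, overlapping with Oasl2. With siMbnl1/2, Zbp1 led at 23.0 without overlap, followed by Ddx58, Oasl2, Eif2ak2, Adar and Mavs at 15.0 to 12.4, each overlapping with its neighbour. With miR-294, Ddx58 led at 30.7, above Adar at 13.8.

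In miR-294 minus Dgcr8 KO, Zbp1, Oasl2 and Eif2ak2 were lower and Ddx58 and Ripk3 higher. The sequence of miR-294 and the transfection of a duplex RNA cannot be told apart in it. Of the 7 members tested, 5 were called, 2 higher and 3 lower, where 52.2% of all tested genes were called, 22.9% higher and 29.2% lower. The libraries of 6 of the 7 did not overlap, as for 78.5% of all tested genes. Over all genes that was 2934 higher and 3737 lower, and 3422 and 3418 under median-of-ratios scaling. Zbp1 was at 2.05 ± 0.174 FPKM with miR-294 and 16.6 ± 1.5 in Dgcr8 KO (SD, n = 2 each), a difference of -2.53 ± 0.10 (adjusted p = 1.97e-05). Oasl2 was at 1.21 ± 0.29 with miR-294 and 10.7 ± 0.976 in Dgcr8 KO, and Eif2ak2 at 6.42 ± 0.0608 with miR-294 and 14.6 ± 1.13 in Dgcr8 KO. These are changes of -2.41 ± 0.17 and -1.07 ± 0.11 (adjusted p = 7.13e-05 and 0.000222).

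Ddx58 moved the other way from Zbp1, Oasl2 and Eif2ak2. It was at 30.7 ± 0.981 FPKM with miR-294 and 15.7 ± 1.04 in Dgcr8 KO (SD, n = 2 each), a rise of 0.92 ± 0.08 (adjusted p = 0.00014). Ripk3 was at 5.69 ± 0.327 with miR-294 and 2.65 ± 0.663 in Dgcr8 KO (0.88 ± 0.15, adjusted p = 0.00199). Mavs had a difference of -0.19 ± 0.17 (adjusted p = 0.384) with overlapping libraries, and Adar one of 0.14 ± 0.08 (adjusted p = 0.179). The 5 calls held in all 16 alternatives tried. The Dgcr8 KO libraries are shared by this comparison, Dgcr8 KO minus WT and siMbnl1/2 minus Dgcr8 KO, so their directions are not independent of each other.

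Set against WT directly, 4 of the 7 members tested were higher with miR-294 and 0 lower. The difference of means uses no Dgcr8 KO library, while the spread behind the test was estimated from all 8 libraries. Of all tested genes 26.5% were called, 11.8% higher and 14.7% lower (1508 and 1882 genes, and 2019 and 1536 under median-of-ratios scaling). The libraries of all 7 did not overlap, as for 76.7% of all tested genes. Ddx58 was higher by 1.04 ± 0.08 (adjusted p = 0.000232), so its level with miR-294 was 2.13 times that in WT. Zbp1, at 2.05 ± 0.174 FPKM with miR-294 and 0.116 ± 0.0343 in WT, was higher by 1.45 ± 0.10 (adjusted p = 0.000164), and by 3.32 with a pseudocount of 0.1. Oasl2 was higher by 0.93 ± 0.17 (adjusted p = 0.00764), by 2.47 with a pseudocount of 0.1, and the call was lost without miR-294 replicate 1 or WT replicate 2 (adjusted p = 0.0628 and 0.0588). Mavs was higher by 0.57 ± 0.17 (adjusted p = 0.0437), a call that held in 9 of 16 alternatives and was lost without any 1 of the miR-294 or WT libraries, with adjusted p-values up to 0.178, and it stood at an adjusted p of 0.000979 when the miR-294 and WT libraries were fitted alone. Eif2ak2 and Ripk3 did not pass the test against WT, with differences of -0.12 ± 0.11 and 0.17 ± 0.15 (adjusted p = 0.445 and 0.444).

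With siRNAs against Mbnl1 and Mbnl2, 0 of the 7 members tested were called by limma against Dgcr8 KO, with differences from -0.25 for Mavs to 0.45 for Zbp1. Of all tested genes 1.11% were called in this comparison, 0.868% higher and 0.242% lower (111 and 31 genes, and 97 and 75 under median-of-ratios scaling), and at an unadjusted p under 0.05 there were 2 members, against 18.4% of all tested genes. These were Zbp1, at 23.0 ± 1.25 FPKM with siMbnl1/2 and 16.6 ± 1.5 in Dgcr8 KO (0.45 ± 0.10, adjusted p = 0.0829), and Ripk3, at 3.9 ± 0.337 with siMbnl1/2 and 2.65 ± 0.663 in Dgcr8 KO (0.43 ± 0.15, adjusted p = 0.179). The libraries of Zbp1, Oasl2 and Ripk3 did not overlap between the groups, as was the case for 38.7% of all tested genes. The two-cell-like markers summed to 97.7 and 33.1 FPKM in the siMbnl1/2 libraries and to 18.1 and 18.0 in Dgcr8 KO, and their part in these values was not tested.

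The direct difference between the duplexes, siMbnl1/2 minus miR-294, was called for 5 of the 7 members, 3 higher and 2 lower, where 54% of all tested genes were called, 33% higher and 21% lower. The libraries of 6 of the 7 did not overlap, as for 76.7% of all tested genes. That was 4217 and 2685 genes, and 3477 and 3461 under median-of-ratios scaling. Zbp1 and Oasl2 were higher with siMbnl1/2 by 2.98 ± 0.10 and 2.74 ± 0.17 (adjusted p = 9.81e-06 and 4.15e-05), and Eif2ak2 by 0.95 ± 0.11 (adjusted p = 0.000321). Ddx58 was at 15.0 ± 1.01 FPKM with siMbnl1/2 and 30.7 ± 0.981 with miR-294, a difference of -0.98 ± 0.08 (adjusted p = 9.35e-05). Both groups received a duplex RNA at the same dose, and the part of the duplexes in this difference was not tested. Ripk3 was lower by 0.45 on the log2 scale (SE 0.15, adjusted p = 0.0343), a call lost without siMbnl1/2 replicate 1, without either miR-294 library and without a filter (adjusted p up to 0.153). The median of all genes here was 0.10, which quantile normalization moved to -0.02.

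**Figure D2:**
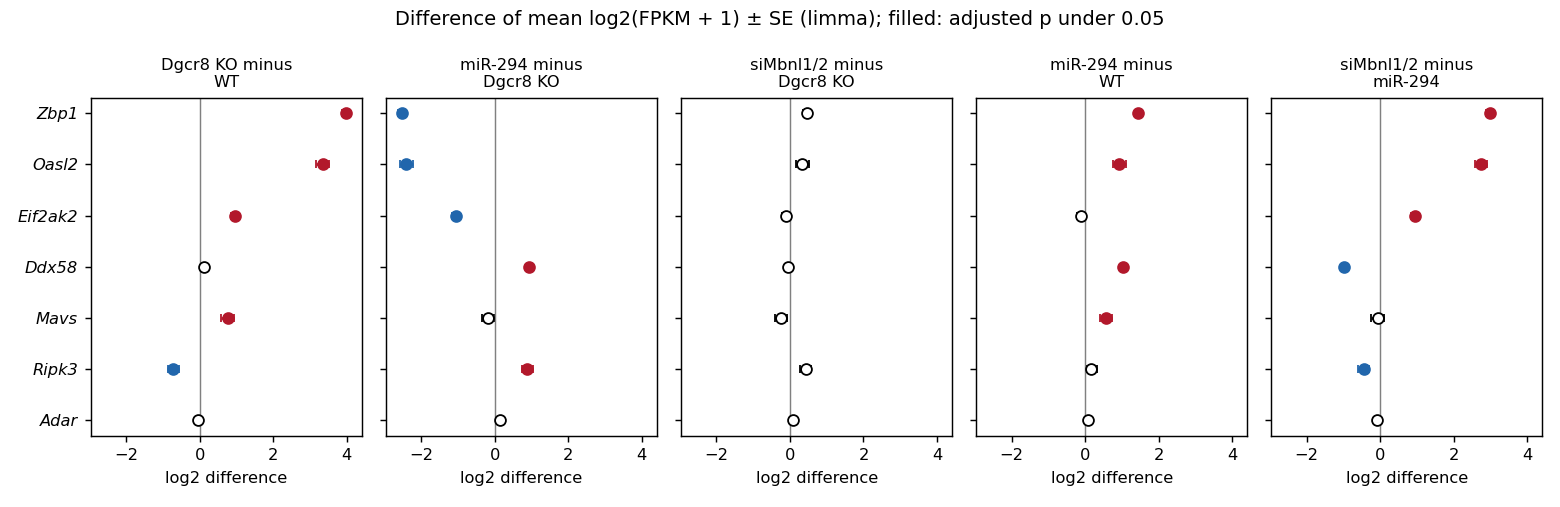
Differences of mean log2(FPKM + 1) with their SE from limma for the 7 members tested, in the 5 comparisons (filled points have an adjusted p under 0.05). Zbp1 and Oasl2 rise in Dgcr8 KO minus WT by 3.98 and 3.34 and fall in miR-294 minus Dgcr8 KO, Ddx58 rises with miR-294 against both Dgcr8 KO and WT, and no point is filled for siMbnl1/2 minus Dgcr8 KO.

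The other genes of the pathway were taken from lists that leave out the 10 members. Their counts stand beside 59.8% of all tested genes called in Dgcr8 KO minus WT, 29.6% higher and 30.1% lower. In miR-294 minus Dgcr8 KO 52.2% of all tested genes were called, 22.9% higher and 29.2% lower. The counts cover only genes that passed the filter, some of them through the groups in which they were high. Of the interferon ligands, receptors and transducers, 26 in the list, 17 were tested and all 17 were higher in Dgcr8 KO than in WT, with a median of 0.74 against 0 over all genes. After miR-294, 13 of the 17 were lower and 0 higher than in Dgcr8 KO (median -0.88, against -0.06 over all genes). Irf2, a repressor and activator of interferon-response promoters, had 7.93 and 6.74 FPKM with siMbnl1/2, 0.623 and 0.614 with miR-294, 9.76 and 9.02 in Dgcr8 KO, and 0.133 and 0.517 in WT. Irf1, an activator of the same promoters, had 38.3 and 38.9 with siMbnl1/2, 13.2 and 11.1 with miR-294, 35.9 and 32.8 in Dgcr8 KO, and 5.04 and 4.31 in WT. Both rose in Dgcr8 KO over WT, by 2.99 ± 0.15 and 2.64 ± 0.11 (adjusted p = 9.26e-06 and 3.83e-06), and Irf2, like Zbp1, passed the filter only through the siMbnl1/2 and Dgcr8 KO libraries, so that a difference was built in. The interferon genes Ifnb1, Ifna4, Ifna2, Ifnk, Ifnl2 and Ifnl3 were listed at 0 in every library. Ifng, on the same list, had means of 0.0318 FPKM with siMbnl1/2, 0.0174 with miR-294 and 0 in Dgcr8 KO and WT.

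Of the 42 interferon-induced effectors in the list 20 were tested, of which 16 were higher and 0 lower in Dgcr8 KO than in WT (median 1.42), and 18 lower and 0 higher with miR-294 than in Dgcr8 KO (median -1.09). Psmb8, a subunit of the immunoproteasome, had 12.8 and 11.5 FPKM with siMbnl1/2, 0.492 and 1.09 with miR-294, 11.1 and 8.78 in Dgcr8 KO, and 0.0977 and 0.085 in WT. Xaf1, an inducible antagonist of the apoptosis inhibitor Xiap, had 19.4 and 19.7 with siMbnl1/2, 4.68 and 3.88 with miR-294, 17.6 and 14.6 in Dgcr8 KO, and 2.14 and 1.68 in WT. Their rises in Dgcr8 KO over WT were 3.32 ± 0.18 and 2.56 ± 0.13 (adjusted p = 1.02e-05 and 8.85e-06). Like Zbp1, Psmb8 passed the filter only through the groups in which it was high, so that its part in these counts was built in.

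Among the other genes of the oligoadenylate synthetase pathway, 8 of 13 were tested, with 6 higher and 1 lower in Dgcr8 KO than in WT (median 1.16). With miR-294, 1 was higher and 3 lower than in Dgcr8 KO (median -0.19). Oasl1 was at 1.1 FPKM with miR-294, 5.16 in Dgcr8 KO and 0.643 in WT. Oas2 was at 2.42 with miR-294, 4.43 in Dgcr8 KO and 0.496 in WT. With siMbnl1/2, Oasl1 had 2.82 and 4.75 FPKM and Oas2 3.95 and 4.07. Oasl1 passed the filter only through the siMbnl1/2 and Dgcr8 KO libraries, so that a difference was built in.

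Of 29 signalling genes below the sensors 27 were tested, with 7 higher and 5 lower in Dgcr8 KO than in WT (median 0.14) and 3 higher and 10 lower with miR-294 than in Dgcr8 KO (median -0.12). Rnf135, the ubiquitin ligase that activates RIG-I, was at 2.74 FPKM with miR-294, 6.21 in Dgcr8 KO and 2.05 in WT. It thus fell with miR-294 (-0.95 ± 0.12, adjusted p = 0.000615) while Ddx58 rose. Ikbkg, the regulatory subunit of the IκB kinase, rose in Dgcr8 KO by 0.78 ± 0.11 (adjusted p = 0.000678), and Unc93b1, the chaperone of endosomal Toll-like receptors, fell with miR-294 by 1.32 on the log2 scale (SE 0.18, adjusted p = 0.00072).

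Of the genes around Ripk3 in necroptosis, 10 of 12 were tested. In Dgcr8 KO 5 were higher and 0 lower than in WT (median 0.34), and with miR-294 0 were higher and 7 lower than in Dgcr8 KO (median -0.39). The share called was 50% in Dgcr8 KO minus WT, where 59.8% of all tested genes were called and 29.6% were called higher. In miR-294 minus Dgcr8 KO it was 70%, where 52.2% of all tested genes were called and 29.2% were called lower. Ripk3 itself went the other way in both comparisons. Birc3, a ubiquitin ligase of the Ripk1 complex, was at 4.44 FPKM with miR-294, 9.78 in Dgcr8 KO and 2.41 in WT, and the deubiquitinase gene Cyld at 5.12 with miR-294, 9.61 in Dgcr8 KO and 4.58 in WT. Mlkl, the pore-forming substrate of Ripk3, was below the filter with means of 0.402 FPKM with siMbnl1/2, 0.227 with miR-294, 0.429 in Dgcr8 KO and 0.889 in WT.

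Other proteins that bind double-stranded RNA had 22 of 25 genes tested, with 4 higher and 11 lower in Dgcr8 KO than in WT (median -0.31) and 9 higher and 3 lower with miR-294 than in Dgcr8 KO (median 0.15). Dgcr8 is on this list. The nucleolar helicase gene Ddx21 was at 124 FPKM with miR-294, 56.2 in Dgcr8 KO and 120 in WT, and Stau2, of the Staufen family of RNA transport proteins, at 3.24 with miR-294, 8.42 in Dgcr8 KO and 4.95 in WT. In the cytosolic DNA sensing list, 10 of the 15 genes in the table were tested, with 5 higher and 3 lower in Dgcr8 KO than in WT and 2 higher and 5 lower with miR-294 than in Dgcr8 KO. The inflammasome sensor Aim2 rose in Dgcr8 KO by 0.92 ± 0.09 (adjusted p = 9.06e-05). The adaptor gene Tmem173 (STING) had a mean of 2.17 FPKM in Dgcr8 KO and 0.635 in WT (0.95 ± 0.13, adjusted p = 0.000645), but it was below 1 in every miR-294 and WT library and passed the filter only through the other groups. Mb21d1, which encodes the DNA sensor cGAS, fell with miR-294 by 1.44 on the log2 scale (SE 0.11, adjusted p = 8.02e-05). In siMbnl1/2 minus Dgcr8 KO limma called 0 genes in each of these 7 lists, where 1.11% of all tested genes were called. At an unadjusted p under 0.05, reached by 18.4% of all tested genes, there were 6 of 20 interferon-induced effectors, 6 higher. There were also 3 of 10 DNA sensing genes (1 higher), 2 of 27 signalling genes (1 higher) and 1 of 10 necroptosis genes (1 higher). Of the other double-stranded RNA binding proteins there was 1 of 22 (0 higher). The oligoadenylate synthetase pathway had 0 of 8, and the interferon ligands, receptors and transducers 0 of 17.

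**Figure D3:**
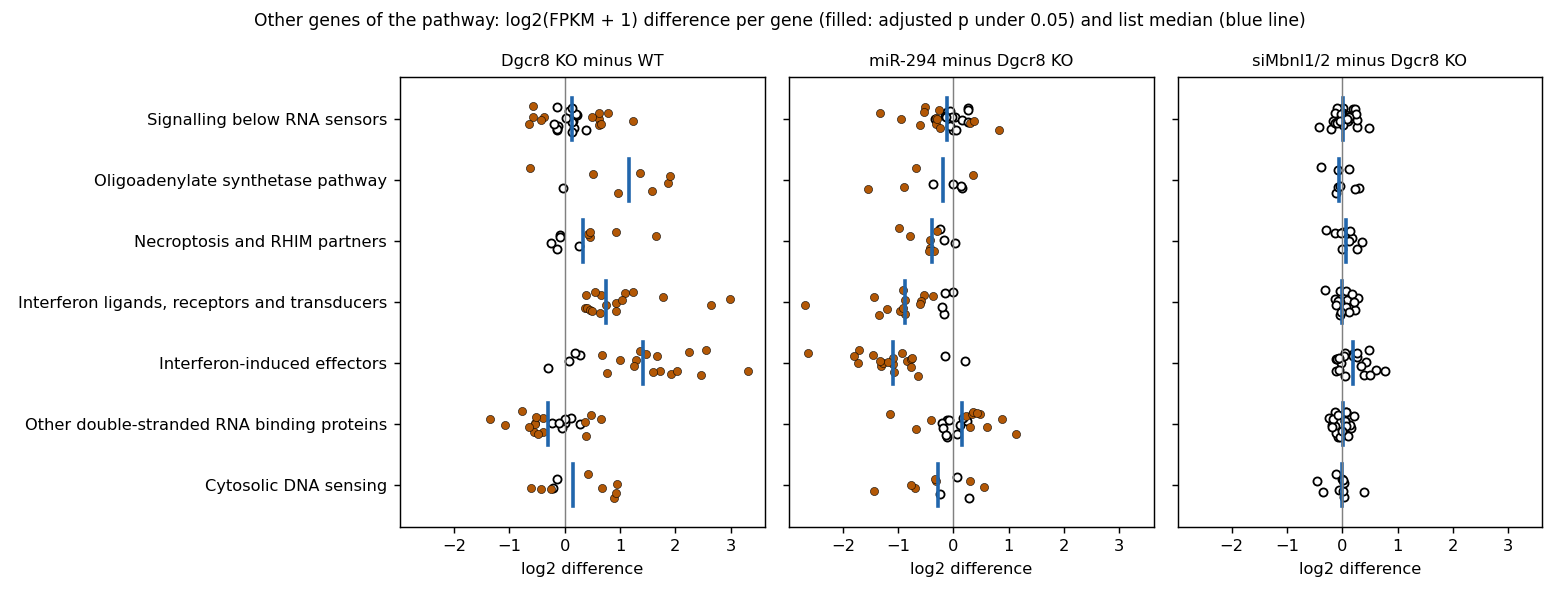
Each point is the difference of mean log2(FPKM + 1) of 1 tested gene of a pathway list in 3 comparisons with the Dgcr8 KO libraries, filled at an adjusted p under 0.05, and the blue line is the median of the list. The interferon lists lie to the right in Dgcr8 KO minus WT (medians 0.74 and 1.42) and to the left in miR-294 minus Dgcr8 KO (-0.88 and -1.09), and no point is filled with siMbnl1/2. Some genes passed the filter only through the groups in which they were high, so their differences are built in.

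The genes closest in pattern to the 3 most variable members were found by the distance between mean-centred log2(FPKM + 1) profiles over the 8 libraries, among 11347 candidate genes. For Zbp1 these were Ifitm1 (distance 0.69), Lrrc31 (0.86) and Msln (0.90), with Pearson r of 0.994, 0.99 and 0.994. For Oasl2 they were Lrrc31 (0.62), Psmb8 (0.73) and Fxyd6 (0.78), with r of 0.992, 0.987 and 0.989. For Eif2ak2 they were Phc3 (0.17), Rufy2 (0.19) and Setbp1 (0.19), with r of 0.993, 0.994 and 0.99. The 8 points of each r fall into 4 groups, so the coefficients describe the group levels and carry no p.

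**Figure D4:**
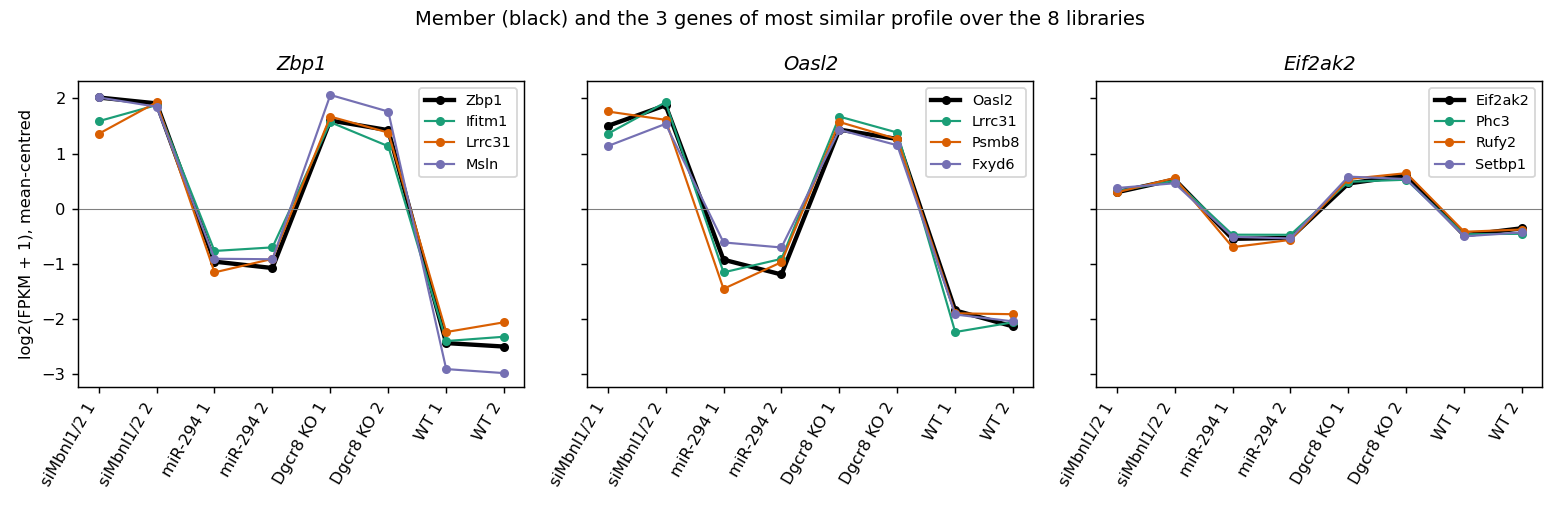
Mean-centred log2(FPKM + 1) of Zbp1, Oasl2 and Eif2ak2 (black) and of the 3 genes nearest to each, over the 8 libraries. The siMbnl1/2 and Dgcr8 KO libraries lie above the mean of the gene and the miR-294 and WT libraries below it in all 3 panels.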

How the data were processed

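The deposited file holds gene-level FPKM made by the authors, with a column for each library; the tools in the submitters' processing notes are STAR 2.5.0 and Cufflinks 2.2.1, the build is mm10, and the annotation release is not given in the sources used here. The library protocol keeps strand through dUTP, per the labels' protocols. An FPKM is scaled to the total of its library, and read counts were not recovered from it, so depth is unknown and no counting interval is given. Values were analysed as log2(FPKM + 1) for the 12786 entries that averaged 1 FPKM or more across all 8 libraries. Group means were fitted in all 8 libraries together with limma 3.58.1 (R 4.3.3, statmod 1.5.0), with a variance trend and robust moderation. Tests were two-sided, and calls were made where the p adjusted by Benjamini-Hochberg, over all genes tested, was under 0.05. The fit was tested on simulated data. Gene lists, members and the rule for named genes were chosen with earlier results of these data known. The rule takes all 10 members, Dgcr8, Mbnl1 and Mbnl2, and of each pathway list the 2 called genes that changed most in Dgcr8 KO minus WT and the 1 that changed most in each comparison between treatments. Starts in the deposited file lie 1 base below 1-based GENCODE M21 starts for 9 of the 10 members and are printed 1-based. Alternatives were another pseudocount, other filters, 2 other scalings, plain moderation, the libraries of a comparison alone, the replicate number as a block, and leaving out each library. A gene of the oligoadenylate synthetase list is not reported here.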

Additional observations from a re-analysis of the deposited data

How the results depend on the processing

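Of 560 values of single members under 16 alternatives, 540 kept their direction and their side of the threshold, 13 lost the call, 2 gained it and 5 turned in direction. Those that gained it were Adar under quantile normalization, at 0.29 in miR-294 minus Dgcr8 KO and -0.26 in siMbnl1/2 minus miR-294. Turned values were all of differences not called: with a library left out, Adar ranged from -0.15 to 0.02 in Dgcr8 KO minus WT and from -0.02 to 0.15 in siMbnl1/2 minus Dgcr8 KO, turning without Dgcr8 KO replicate 2. Ddx58 ranged from -0.12 to 0 in siMbnl1/2 minus Dgcr8 KO, and Mavs from -0.31 to 0.18 in siMbnl1/2 minus miR-294, turning without siMbnl1/2 replicate 1. The genes called in siMbnl1/2 minus Dgcr8 KO, 142 in all, numbered 61 without a filter and 4 when just the libraries compared were fitted. They ranged from 15 (without Dgcr8 KO replicate 2) to 650 (without siMbnl1/2 replicate 2) when a library was left out. In miR-294 minus WT, 3390 genes were called, 6311 when just the libraries compared were fitted, and 1242 (without WT replicate 1) to 4578 with a library left out, when 2 to 4 members were called. With the replicate block 33 genes were called in siMbnl1/2 minus Dgcr8 KO, and of the members' calls it changed that of Mavs in miR-294 minus WT alone (adjusted p = 0.0756). The correlation of replicate differences between groups lay between -0.05 and 0.19, the highest for Dgcr8 KO with WT. With 1 such difference per group, it cannot settle whether replicate numbers pair the libraries. The cause of these shifts was not tested.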

Other observations

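Several interferon-induced genes of the lists lay below the filter and were not tested. In mean FPKM, Gbp7, an interferon-inducible GTPase, was listed at 1.33 with siMbnl1/2, 0.113 with miR-294, 1.07 in Dgcr8 KO and 0.0114 in WT. Rsad2, which encodes the antiviral enzyme viperin, was at 1.5 with siMbnl1/2, 0.421 with miR-294, 1.36 in Dgcr8 KO and 0.0612 in WT, and Uba7, the activating enzyme of Isg15, at 1.56 with siMbnl1/2, 0.128 with miR-294, 1.2 in Dgcr8 KO and 0.203 in WT. Ifit2 went the other way, at 0.119 in Dgcr8 KO and 0.47 in WT. Mx1, Mx2, Ifit3 and Usp18 had no library above 0.143 FPKM. These genes were chosen after their values were seen.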
